A study of Homo sapiens with 16 samples.

Results

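The genes described are 10 members of the NF-κB pathway, taken by symbol from the 23354 genes of the read count table: the subunits NFKB1, NFKB2, RELA, RELB and REL, the inhibitors NFKBIA, NFKBIE and TNFAIP3, and the ubiquitin regulators BIRC3 and TRAF3. All 10 were among the 14215 genes with enough counts to be tested. They were measured by RNA-seq of rRNA-depleted total RNA (Ribo-Zero) in a pair of human multiple myeloma (MM) cell lines, Dex-sensitive MM1S and Dex-resistant MM1R. Each line received vehicle, dexamethasone (Dex, 1 μM), TAK-981 (0.1 μM) or both drugs at those doses (combo) for 48 h, and the 8 groups so formed hold 2 libraries apiece. TAK-981 blocks the E1 enzyme that activates SUMO, a small protein attached to other proteins, and Dex is a synthetic glucocorticoid that acts through the glucocorticoid receptor. Each line is 1 established cell line, and the labels do not say whether the 2 libraries of a group came from separate cultures. The p-values thus rest on a spread between libraries that may be technical and that was estimated over all 8 groups together.

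NF-κB is a family of dimeric transcription factors that drive inflammatory, survival and B lineage genes. In the canonical arm, inhibitors such as IκBα hold dimers of RELA, REL and p50 in the cytoplasm until IKK kinases mark the inhibitor for destruction. In the non-canonical arm, TRAF3 and the cIAP ubiquitin ligases keep the kinase NIK (MAP3K14) low, and when they are lost NIK drives the processing of NFKB2 p100 to p52, the partner of RELB. Myeloma cells often carry lesions of this pathway, TRAF3 loss among them, and several of its genes, including NFKBIA, TNFAIP3, BIRC3, NFKB2 and RELB, are themselves NF-κB targets and act as feedback.

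Promoter sequences are shown for 4 members, because they are the feedback genes whose counts moved under TAK-981 or under Dex added to it. They were taken from a RefSeq promoter table (GRCh38.p14), which held 8 of the 10 members in 12 windows, 1 for each annotated start, and RELB and NFKBIE were not matched. Each line gives the 250 bases before a start on the coding strand, 5′ to 3′, with matches to the κB consensus, searched on both strands, in capitals. The windows are chr11:102317234-102317483 (plus strand) for BIRC3, chr14:35404750-35404999 (minus strand) for NFKBIA, chr6:137867009-137867258 (plus strand) for TNFAIP3 and chr10:102394328-102394577 (plus strand) for the second start of NFKB2.
BIRC3: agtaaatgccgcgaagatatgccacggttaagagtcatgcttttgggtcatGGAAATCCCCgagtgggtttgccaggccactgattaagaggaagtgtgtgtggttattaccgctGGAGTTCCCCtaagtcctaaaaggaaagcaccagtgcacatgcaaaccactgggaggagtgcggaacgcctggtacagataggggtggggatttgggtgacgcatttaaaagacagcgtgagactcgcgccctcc
NFKBIA: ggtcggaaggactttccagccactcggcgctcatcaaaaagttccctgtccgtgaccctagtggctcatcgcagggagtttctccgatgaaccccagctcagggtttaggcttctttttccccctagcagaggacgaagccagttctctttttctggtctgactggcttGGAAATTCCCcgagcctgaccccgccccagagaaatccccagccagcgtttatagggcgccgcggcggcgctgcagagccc
TNFAIP3: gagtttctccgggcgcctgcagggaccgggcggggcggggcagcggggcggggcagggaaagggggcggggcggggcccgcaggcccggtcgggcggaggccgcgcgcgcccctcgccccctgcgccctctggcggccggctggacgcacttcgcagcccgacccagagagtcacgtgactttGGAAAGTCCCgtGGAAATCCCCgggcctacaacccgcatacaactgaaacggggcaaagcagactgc
NFKB2: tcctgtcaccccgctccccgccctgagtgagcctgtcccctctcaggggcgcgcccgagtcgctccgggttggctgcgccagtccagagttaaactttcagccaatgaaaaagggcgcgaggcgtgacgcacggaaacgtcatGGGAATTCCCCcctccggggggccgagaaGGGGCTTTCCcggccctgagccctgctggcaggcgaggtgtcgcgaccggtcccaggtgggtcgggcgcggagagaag
The matches began at −199 and −135 from the start in BIRC3, at −81 in NFKBIA, at −67 and −55 in TNFAIP3, and at −107, −106 and −78 in NFKB2, where the first pair overlap. Windows of 300 bases held at least 1 match in 8 of the 12 member windows, for 7 of 8 members, and in 3956 of 35116 windows over all genes (11.3%). The remaining matches lay in NFKB1, REL, TRAF3 and the third start of NFKB2. Neither window of RELA held one, nor did the second start of NFKB1 or the first start of NFKB2. Of the NFKB2 windows, the one shown held the most matches. A match is a description of these letters and not a measured site.

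The MM1S libraries held 15707587 to 20644510 counts each and the MM1R libraries 18987739 to 24796539. Plasma cell markers were present in every library, with SDC1 from 495 to 973 and IRF4 from 514 to 1468 CPM (counts per 1e6 counts after TMM scaling), and the B cell markers MS4A1 and PAX5 did not pass 0.542 CPM. CD38 was the lowest of the 7 plasma cell markers, from 6.74 to 44.9 CPM. CD3D was at 0 in every library, CD3E did not pass 5.33 CPM, the myeloid markers CD14, LYZ and CSF1R did not pass 0.454 CPM, stromal COL1A1 did not pass 1.81 CPM and erythroid HBB did not pass 12.4 CPM. The 7 plasma cell markers summed to 4318 and 4338 CPM in vehicle-treated MM1S and to between 3063 and 3221 CPM in combo-treated MM1S, and the part of this shift in the results below was not tested. The Dex label was checked on glucocorticoid-induced genes. All 5 of these (FKBP5, TSC22D3, PER1, ZBTB16 and KLF9) rose with Dex in MM1S, FKBP5 by 4.60 on the log2 scale, and none was called in MM1R. NR3C1, which encodes the receptor, was at 279.7 CPM in vehicle-treated MM1S and 18.9 CPM in vehicle-treated MM1R. In bulk libraries such as these, fewer cells expressing a gene and less RNA per cell cannot be told apart.

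Before any drug, the deubiquitinase gene TNFAIP3 (A20) was the most abundant member and REL (c-Rel) the least. Per kilobase of the table's gene length, TNFAIP3 was at 134 ± 0.596 CPM per kb in vehicle-treated MM1S (mean ± SD, n = 2, as for the levels that follow) and REL at 1.13 ± 0.204. Between them stood NFKB2 at 51.3 ± 2.30, BIRC3 at 31.5 ± 1.17, NFKB1 at 25.3 ± 1.02, NFKBIA at 23.4 ± 1.28, RELA at 20.9 ± 0.233 and RELB at 17.1 ± 0.883 CPM per kb. TRAF3 at 9.54 ± 0.467 and NFKBIE at 9.43 ± 0.231 CPM per kb were neighbours whose libraries overlapped, and no other neighbours did. In vehicle-treated MM1R the ends of the order were held by TNFAIP3 at 103 ± 1.30 and REL at 0.304 ± 0.0458 CPM per kb, while BIRC3, at 20.0 ± 0.285, stood below RELA at 24.3 ± 0.473, NFKB1 at 22.8 ± 0.0719 and NFKBIA at 21.7 ± 0.630. TNFAIP3 was above 98.2% or more of the tested genes in CPM in every group. REL was read from few counts, 54 and 64 in vehicle-treated MM1S and 21 and 17 in vehicle-treated MM1R, so its standard errors were larger than those of the other members.

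**Figure D1:**
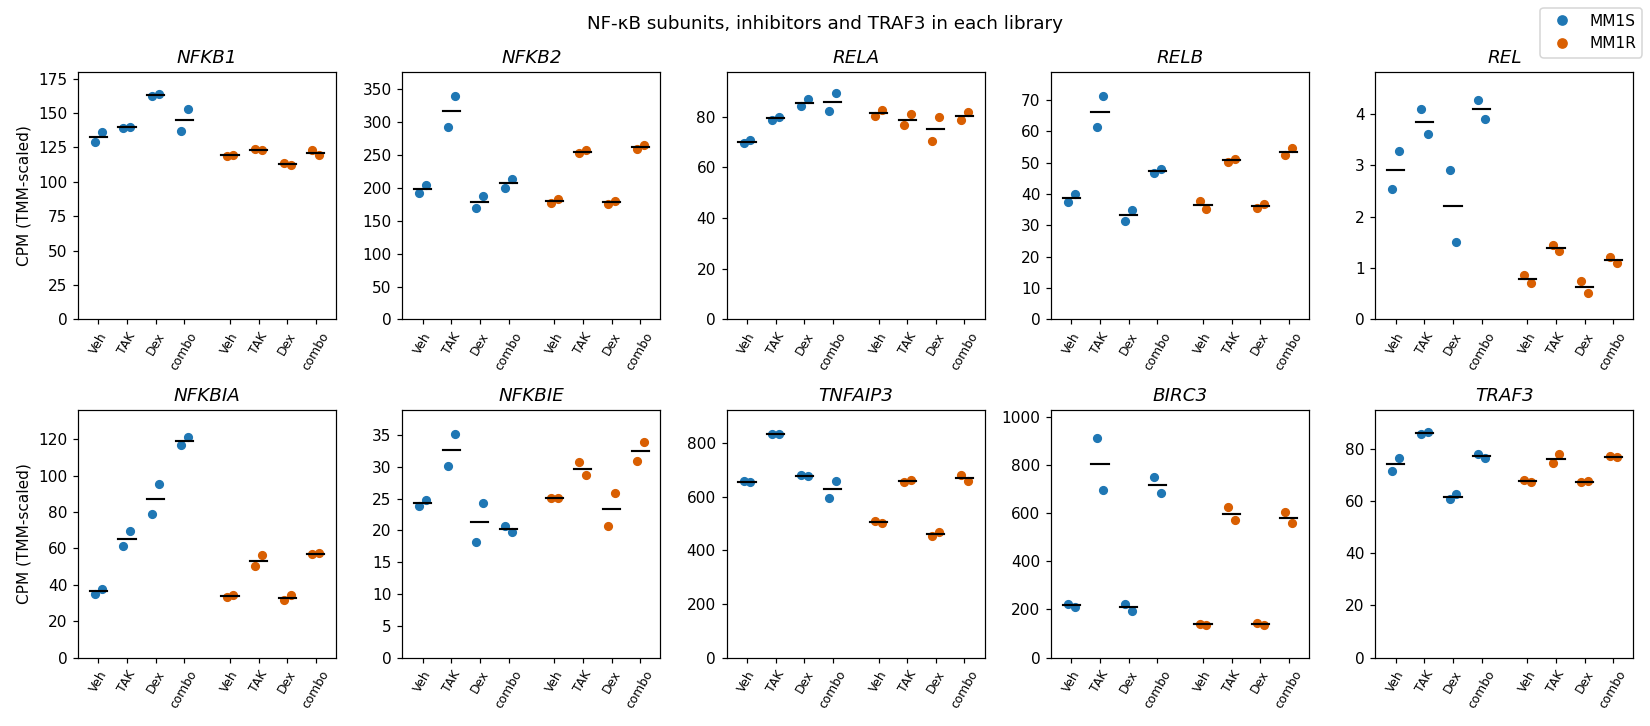
Level of each member in each of the 16 libraries, on a linear axis in CPM after TMM scaling that starts at 0, with 1 point per library, a black bar at the mean of each group of 2, and MM1S in blue beside MM1R in orange. BIRC3 is high in all TAK-981 and combo libraries of both lines (at least 557 CPM, against at most 223 CPM in the others), while NFKBIA is highest in combo-treated MM1S.

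TAK-981 treatment raised most members in both lines. The first question was how inhibition of SUMOylation alone changed the pathway. In MM1S 8 of 10 members were higher than vehicle and 0 lower (edgeR quasi-likelihood F test, Benjamini-Hochberg adjusted p under 0.05 over all genes), where the test called 49.0% of all genes, 25.2% higher and 23.7% lower. Without vehicle replicate 1 the calls for RELA, NFKBIE and TRAF3 in MM1S were lost, and fewer of all genes were called. In MM1R 7 were higher and 0 lower, against 53.4% of all genes, 25.8% higher and 27.6% lower. The median log2 fold change (log2FC) of the members was 0.42 in MM1S and 0.43 in MM1R, and that of all tested genes was 0.04 and 0.00. Both TAK-981 libraries lay above both vehicle libraries for 10 of 10 members in MM1S and for 9 of 10 in MM1R. In MM1S these included NFKB1 and REL, which did not pass the test. The share of all genes separated in this way was not counted, so nothing is drawn from these counts. These comparisons use the same vehicle libraries as the Dex and combo comparisons below, so their values are given side by side and are not independent of them.

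Among the ubiquitin regulators, BIRC3 encodes cIAP2, a ubiquitin ligase that acts with TRAF2 and TRAF3 (hg19 chr11:102188181-102210135, plus strand). In MM1S it was at 223 and 211 CPM with vehicle and at 912 and 693 CPM with TAK-981. In MM1R it was at 139 and 136 CPM with vehicle and at 624 and 571 CPM with TAK-981. The groups did not overlap in either line, and BIRC3 moved further than any other member. TAK-981 raised it 3.70-fold in MM1S (log2FC 1.89, standard error (SE) 0.10, edgeR adjusted p = 2.85e-10) and 4.33-fold in MM1R (log2FC 2.12, SE 0.11, edgeR adjusted p = 1.18e-10). Leaving out any 1 library kept the log2FC in MM1S between 1.67 and 2.07.

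TRAF3, the adaptor that recruits the cIAPs to NIK (hg19 chr14:103243816-103377837, plus strand), was at 71.5 and 76.6 CPM with vehicle and 85.7 and 86.5 CPM with TAK-981 in MM1S, and at 68.1 and 67.2 CPM and 74.5 and 78.1 CPM in MM1R. The libraries did not overlap, but the difference was small, with a log2FC of 0.22 in MM1S (95% interval 0.09 to 0.34, edgeR adjusted p = 0.00473) and 0.17 in MM1R (0.05 to 0.30, edgeR adjusted p = 0.0177). The call in MM1S was lost without vehicle replicate 1 and when only the groups compared were fitted. In MM1R it was lost without vehicle replicate 1, vehicle replicate 2 or TAK-981 replicate 2, and without the filter on low counts.

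Of the subunits, the non-canonical pair of NFKB2 (p100/p52, hg19 chr10:104153867-104162286, plus strand) and RELB (hg19 chr19:45504707-45541456, plus strand) rose in both lines. NFKB2 was at 192 and 204 CPM with vehicle and 293 and 340.0 CPM with TAK-981 in MM1S, and at 177 and 183 CPM and 253 and 257 CPM in MM1R. Its log2FC was 0.68 (SE 0.07, edgeR adjusted p = 2.62e-07) in MM1S and 0.50 (SE 0.07, edgeR adjusted p = 9.94e-06) in MM1R. RELB was at 37.3 and 40.1 CPM with vehicle and 61.4 and 71.1 CPM with TAK-981 in MM1S, and at 37.9 and 35.1 CPM and 50.2 and 51.2 CPM in MM1R. Every treated library of these genes lay above every vehicle library of its line. RELB rose by a log2FC of 0.78 (edgeR adjusted p = 2.22e-07) and 0.47 (edgeR adjusted p = 7.73e-05).

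NFKB1 and RELA moved little under TAK-981, and REL was read from few counts. NFKB1 (p105/p50, hg19 chr4:103422486-103538459, plus strand) was at 129 and 136 CPM with vehicle and 139.5 and 139.8 CPM with TAK-981 in MM1S, and at 119 and 119 CPM and 124 and 123 CPM in MM1R. The log2FC of NFKB1 was 0.08 (95% interval −0.05 to 0.20, edgeR adjusted p = 0.314) in MM1S and 0.05 (−0.08 to 0.18, edgeR adjusted p = 0.533) in MM1R, so changes above 0.20 lay outside both intervals. RELA (p65, hg19 chr11:65421067-65430443, minus strand) went from 69.6 and 70.7 CPM to 78.9 and 79.8 CPM in MM1S and was at 80.5 and 82.7 CPM and 76.7 and 81.1 CPM in MM1R, where the groups overlapped. Its call in MM1S was not firm. The log2FC was 0.18 (edgeR adjusted p = 0.0362), and the call was lost with RLE or library size scaling, with no filter, with DESeq2, with only the groups compared and without any 1 of the 4 libraries, while in MM1R the log2FC was −0.05 (edgeR adjusted p = 0.574). REL, a subunit prominent in lymphoid cells (hg19 chr2:61108752-61150178, plus strand), had 79 and 70 counts in TAK-981-treated MM1S and 27 and 27 in TAK-981-treated MM1R. Against vehicle its log2FC was 0.41 (95% interval −0.06 to 0.88, edgeR adjusted p = 0.14) in MM1S and 0.82 (0.11 to 1.52, edgeR adjusted p = 0.0479) in MM1R. The latter call was lost without any 1 of the 4 MM1R libraries, with library size scaling and with DESeq2.

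The inhibitors rose as well. NFKBIA, which encodes IκBα (hg19 chr14:35870716-35873960, minus strand), was at 35.1 and 37.9 CPM with vehicle and 61.5 and 69.4 CPM with TAK-981 in MM1S, and at 33.2 and 34.6 CPM and 50.2 and 56.3 CPM in MM1R. The groups did not overlap, and the log2FC was 0.84 (edgeR adjusted p = 4.29e-07) in MM1S and 0.65 (edgeR adjusted p = 9.78e-06) in MM1R. TNFAIP3, which removes and remodels ubiquitin chains upstream of IKK (hg19 chr6:138188325-138204451, plus strand), was at 658 and 654 CPM with vehicle and 834 and 834 CPM with TAK-981 in MM1S, and at 509 and 499.7 CPM and 654 and 661 CPM in MM1R. These groups too were apart, by a log2FC of 0.35 (edgeR adjusted p = 2.98e-05) and 0.38 (edgeR adjusted p = 1.02e-05). TNFAIP3 overlaps the minus-strand gene LOC100130476 over 1046 bases. Whether counting used strand is not stated, and LOC100130476 itself held at most 586 counts in a library. NFKBIE, which encodes IκBε (hg19 chr6:44225903-44233525, minus strand), went from 23.9 and 24.7 CPM to 30.1 and 35.2 CPM in MM1S, a log2FC of 0.43 (edgeR adjusted p = 0.00705) that was not called without vehicle replicate 1 or TAK-981 replicate 2. In MM1R it was at 25.1 and 25.1 CPM with vehicle and 30.7 and 28.6 CPM with TAK-981, and the log2FC of 0.24 did not pass the test (95% interval −0.01 to 0.49, edgeR adjusted p = 0.0999), although it was called with no filter (adjusted p = 0.0484) and with only the groups compared (adjusted p = 9.10e-04).

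The test of a difference between the lines in the TAK-981 response called 0 of 10 members with edgeR and 0 with DESeq2, where edgeR called 4.16% of all genes. RELA and RELB were below an unadjusted p of 0.05 in the edgeR test (2 of 10 members, against 3021 of 14215 genes). Their interaction log2FC (MM1R response minus MM1S response) was −0.23 (95% interval −0.43 to −0.03) and −0.30 (−0.54 to −0.06). BIRC3 had an interval of −0.07 to 0.53. A difference between the lines in these responses was thus not detected, and those intervals bound its size. Without MM1S TAK-981 replicate 1, BIRC3, NFKB2 and RELB were called, but more of all genes were called there too.

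**Figure D2:**
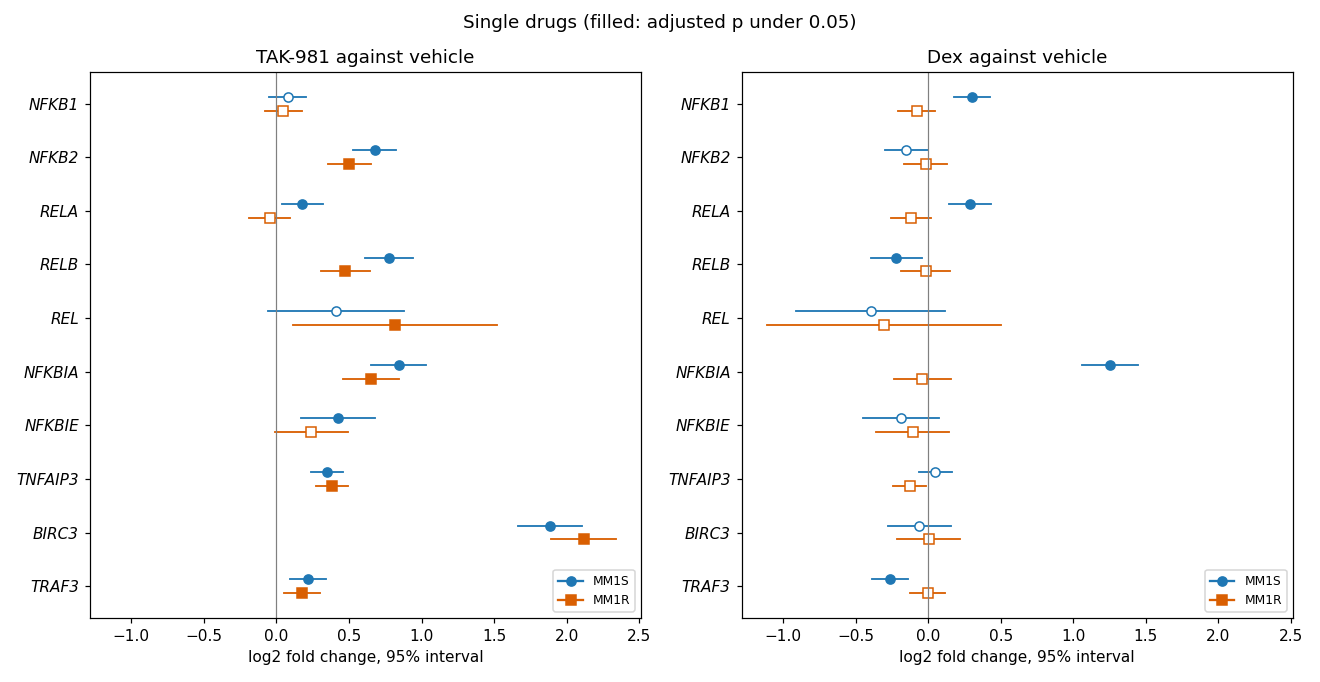
Log2 fold change of each member against vehicle with its 95% interval for TAK-981 (left) and Dex (right), with MM1S as blue circles and MM1R as orange squares, filled where the edgeR adjusted p is under 0.05. BIRC3 stands furthest right under TAK-981 in both lines (1.89 and 2.12), and under Dex NFKBIA in MM1S stands apart (1.25) while no MM1R symbol is filled.

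Dex raised NFKBIA in MM1S and moved other members by less, in both directions. In MM1S 3 of 10 members were higher than vehicle and 2 lower, where edgeR called 42.3% of all genes, 20.8% higher and 21.5% lower, so the members' share was near that of all genes. Their median log2FC was −0.10, against 0.01 for all genes. NFKBIA is a known target of the glucocorticoid receptor, and its product holds NF-κB in the cytoplasm. It was at 78.7 and 95.2 CPM with Dex in MM1S, both above the vehicle libraries, a 2.38-fold difference (log2FC 1.25, SE 0.09, edgeR adjusted p = 2.53e-09). In MM1R it was at 31.5 and 34.3 CPM with Dex, overlapping the vehicle libraries, with a log2FC of −0.04 (95% interval −0.24 to 0.16). The difference between the lines itself passed the test, at −1.29 (SE 0.13, edgeR adjusted p = 5.19e-07).

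NFKB1 and RELA rose under Dex in MM1S. NFKB1 was at 162 and 164 CPM and RELA at 84.2 and 87.0 CPM, all above their vehicle libraries. The log2FC was 0.30 for NFKB1 (edgeR adjusted p = 5.42e-04) and 0.29 for RELA (edgeR adjusted p = 0.00203). RELB and TRAF3 fell instead, RELB to 31.5 and 34.9 CPM and TRAF3 to 60.6 and 62.8 CPM, below every vehicle library. TRAF3 fell by 0.26 on the log2 scale (95% interval −0.39 to −0.14, edgeR adjusted p = 0.00152). RELB fell by 0.22 (edgeR adjusted p = 0.0413), a call lost without vehicle replicate 1, vehicle replicate 2 or Dex replicate 1, with no filter, with DESeq2 and with only the groups compared. The other 5 members did not pass the test in MM1S. NFKB2 was at 169.9 and 187 CPM (log2FC −0.15, edgeR adjusted p = 0.0991), and it was called with library size scaling (−0.18) and without Dex replicate 2 (−0.23). REL had 56 and 30 counts and NFKBIE stood at 18.2 and 24.4 CPM, so for both genes the Dex libraries differed by more than the vehicle libraries did. REL was called at −0.93 without Dex replicate 1 and NFKBIE at −0.42 without Dex replicate 2. BIRC3 at 223 and 193 CPM (log2FC −0.06, 95% interval −0.28 to 0.16) and TNFAIP3 at 680.0 and 676 CPM (log2FC 0.05, 95% interval −0.06 to 0.16) were the members nearest to vehicle.

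In MM1R 0 of 10 members passed the test under Dex with edgeR and 0 with DESeq2, where both tools called 0% of all genes (395 of them with an edgeR unadjusted p under 0.05), and 1 member, TNFAIP3, was below an unadjusted p of 0.05. TNFAIP3 was at 455 and 469 CPM, below both vehicle libraries, with a log2FC of −0.13 (95% interval −0.24 to −0.01, edgeR adjusted p = 1). The largest absolute log2FC was that of REL, −0.31, from 17 and 12 counts. Set against MM1S in a test of the difference, 4 of 10 members differed between the lines in their Dex response, where edgeR called 28.1% of all genes. Beside NFKBIA these were NFKB1 at −0.38 (edgeR adjusted p = 0.00254), RELA at −0.40 (edgeR adjusted p = 0.00344) and TRAF3 at 0.26 (edgeR adjusted p = 0.0261), each as MM1R response minus MM1S response. The call for TRAF3 was lost without 6 of the 8 libraries 1 at a time (all except MM1S vehicle replicate 1 and MM1S Dex replicate 2), and with no filter.

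In MM1S NFKB2, RELB, NFKBIE and TNFAIP3 were lower in combo than with TAK-981 alone, and NFKBIA was higher. The comparison of TAK-981 with vehicle uses the same TAK-981 libraries, so the members called in each are not counted against each other. Combo against TAK-981 alone gave 5 members lower and 1 higher in MM1S, where edgeR called 35.1% of all genes, 20.6% lower and 14.5% higher. The members' median log2FC was −0.16, against −0.02 for all genes. NFKB2 stood at 199.7 and 214 CPM in combo, below both TAK-981 libraries and overlapping the vehicle libraries, with a log2FC of −0.61 against TAK-981 (edgeR adjusted p = 1.55e-06) and 0.06 against vehicle (95% interval −0.09 to 0.21). RELB stood at 46.7 and 47.9 CPM, between the TAK-981 and the vehicle libraries. Against TAK-981 RELB was lower by a log2FC of −0.49 (edgeR adjusted p = 9.96e-05), and against vehicle it was higher by 0.29 (edgeR adjusted p = 0.00525), a call lost without vehicle replicate 1.

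TNFAIP3 and NFKBIE were also lower in combo than with TAK-981 alone. TNFAIP3 was at 594 and 659 CPM in combo-treated MM1S, with a log2FC of −0.41 against TAK-981 (edgeR adjusted p = 7.25e-06) and −0.06 against vehicle (edgeR adjusted p = 0.306). NFKBIE was at 20.7 and 19.8 CPM, below every TAK-981 and vehicle library, with a log2FC of −0.69 (edgeR adjusted p = 2.97e-04) and −0.26 (edgeR adjusted p = 0.0834). The difference between combo and vehicle passed the test for neither gene, but that of NFKBIE was called with no filter (−0.27) and with only the groups compared (−0.28). Without combo replicate 2, TNFAIP3 was called lower than vehicle, at −0.14. TRAF3 was at 77.9 and 76.4 CPM, lower than with TAK-981 by a log2FC of −0.16 (edgeR adjusted p = 0.0426), a call lost without any 1 of the 4 libraries, with library size scaling, no filter, DESeq2 and only the groups compared.

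BIRC3 was at 751 and 684 CPM in combo-treated MM1S, overlapping the TAK-981 libraries (log2FC −0.16, 95% interval −0.37 to 0.05, edgeR adjusted p = 0.229). Without TAK-981 replicate 2 this value was called at −0.35. Against vehicle BIRC3 was 3.30-fold higher (log2FC 1.72, edgeR adjusted p = 3.02e-10). NFKBIA rose further, to 117 and 121 CPM, above all other libraries. Its log2FC was 0.87 against TAK-981 (edgeR adjusted p = 2.50e-07), 0.45 against Dex (edgeR adjusted p = 2.63e-04) and 1.71 against vehicle (edgeR adjusted p = 7.97e-12).

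A test of whether the TAK-981 response in MM1S was the same with and without Dex called 3 of 10 members, all lower with Dex, where edgeR called 14.9% of all genes, 9.48% lower and 5.47% higher. With library size scaling the split of all genes turned, to 1033 higher of 1941, and that of the members was 0 higher and 2 lower. TNFAIP3 had an interaction log2FC of −0.46 (SE 0.08, edgeR adjusted p = 5.39e-04) and NFKB2 one of −0.46 (SE 0.10, edgeR adjusted p = 0.0045, or 0.0553 with only the groups compared). For NFKBIA it was −0.39 (edgeR adjusted p = 0.0441), so the combo level was below the product of the single-drug folds, but this call was lost with library size scaling, DESeq2 and only the groups compared, and without any 1 of 6 of the 8 libraries (all except TAK-981 replicate 1 and Dex replicate 1). Without TAK-981 replicate 1, NFKB1, RELB and NFKBIE were called as well, and without Dex replicate 1 REL and NFKBIE were. In both cases more of all genes were called too. With only the groups compared the count was 1, where edgeR called 779 of 13799 genes. NFKB1 was also called without combo replicate 2, at −0.33. BIRC3 had an interval of −0.41 to 0.20 and was not called.

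In MM1R combo and TAK-981 alone could not be separated for any member. With edgeR and with DESeq2 0 of 10 were called, 0 had an unadjusted p under 0.05, and both tools called 0% of all genes (214 with an edgeR unadjusted p under 0.05). NFKB2 was at 259 and 265 CPM in combo, RELB at 52.4 and 54.7 CPM, NFKBIA at 57.0 and 57.3 CPM, TNFAIP3 at 682 and 659 CPM and BIRC3 at 605 and 557 CPM. All of these libraries lay above the vehicle and Dex libraries of MM1R. Leaving aside REL, whose interval was −0.92 to 0.42, the intervals against TAK-981 stayed within −0.25 and 0.38. The TAK-981 by Dex interaction in MM1R called 0 of 10 members with edgeR and 0 with DESeq2, 0 had an unadjusted p under 0.05, and both tools called 0% of all genes (400 with an edgeR unadjusted p under 0.05).

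The effect of adding Dex to TAK-981 differed between the lines for 5 of 10 members, where edgeR called 23.0% of all genes. This contrast was added after results had been seen. As MM1R minus MM1S, the difference was 0.65 for NFKB2 (edgeR adjusted p = 8.17e-05), 0.56 for RELB (edgeR adjusted p = 0.00115), 0.82 for NFKBIE (edgeR adjusted p = 0.00197) and 0.44 for TNFAIP3 (edgeR adjusted p = 2.91e-04). NFKBIA differed in the other direction, at −0.76 (edgeR adjusted p = 1.62e-04). All 5 calls held with each of the 8 libraries left out in turn.

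Against vehicle, combo gave 4 members higher and 0 lower in MM1S (RELA, RELB, NFKBIA and BIRC3), where edgeR called 60.3% of all genes, 30.8% higher and 29.5% lower, and 7 higher and 0 lower in MM1R (NFKB2, RELB, NFKBIA, NFKBIE, TNFAIP3, BIRC3 and TRAF3), where it called 51.5%, 24.8% higher and 26.7% lower. In MM1S NFKB1 was called at 0.21 without combo replicate 1, and REL (0.49, edgeR adjusted p = 0.0667) was called with no filter and with only the groups compared. RELA in combo-treated MM1S was at 82.2 and 89.5 CPM, close to its Dex level (log2FC 0.29 against vehicle, edgeR adjusted p = 0.0011). In MM1R NFKBIE, at 30.9 and 33.9 CPM, lost its call without vehicle replicate 1, vehicle replicate 2 or combo replicate 2, and TRAF3, at 77.2 and 76.8 CPM, lost its call without any 1 of the 4 libraries. TAK-981 added to Dex raised 6 members and lowered 1, NFKB1, in MM1S, where edgeR called 47.6% of all genes, 22.2% higher and 25.4% lower, and raised 7 in MM1R, where it called 48.4%, 23.1% higher and 25.3% lower. BIRC3 had the largest of these differences, 1.78 in MM1S and 2.07 in MM1R. REL rose by 0.89 in MM1S (edgeR adjusted p = 0.00497), from 56 and 30 counts to 69 and 71, a call lost without Dex replicate 2, whose 30 counts were the lowest in that line. NFKB1 was lower by −0.17 (edgeR adjusted p = 0.0275), a call lost without Dex replicate 1, Dex replicate 2 or combo replicate 1, and TNFAIP3 was called lower at −0.19 without combo replicate 2. In MM1R the calls for NFKBIE, lost without Dex replicate 1, and for TRAF3, lost without Dex replicate 1 or either combo library, rested on single libraries, as did that for NFKB2 in MM1S (without Dex replicate 1 or combo replicate 2), and REL (0.88, edgeR adjusted p = 0.0538) was called in MM1R with no filter and with only the groups compared.

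**Figure D3:**
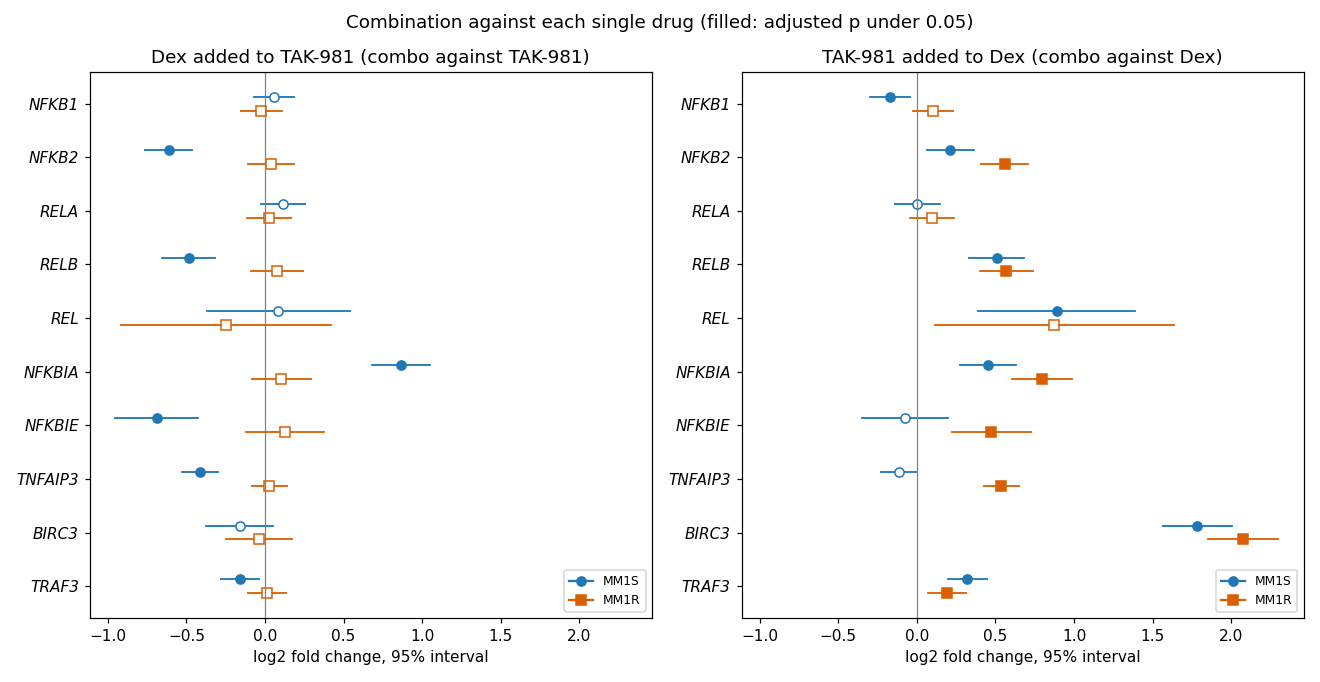
Log2 fold change of each member with its 95% interval for Dex added to TAK-981 (left, combo against TAK-981) and TAK-981 added to Dex (right, combo against Dex), with MM1S as blue circles and MM1R as orange squares, filled where the edgeR adjusted p is under 0.05. On the left NFKB2, RELB, NFKBIE and TNFAIP3 in MM1S lie below −0.40 and NFKBIA at 0.87, while the MM1R symbols are open. On the right BIRC3 lies at 1.78 and 2.07.

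The vehicle-treated lines differed in 5 of 10 members, 1 higher and 4 lower in MM1R, where edgeR called 48.2% of all genes, 25.6% higher and 22.6% lower. With library size scaling 0 members were higher and 6 lower, but the values of all genes moved down too. Their median log2FC went from 0.01 to −0.06, and 2942 of 6782 called genes were higher, in place of 3637 of 6850. REL differed most, with 0.868 and 0.701 CPM in MM1R and 2.54 and 3.28 CPM in MM1S (log2FC −1.88, 95% interval −2.48 to −1.27, edgeR adjusted p = 3.63e-05). BIRC3 was lower in MM1R by a log2FC of −0.66 (edgeR adjusted p = 7.33e-05) and TNFAIP3 by −0.38 (edgeR adjusted p = 1.64e-05). Neither gene's libraries overlapped between the lines. RELA was higher in MM1R by 0.22 (edgeR adjusted p = 0.0119), a call lost without MM1S vehicle replicate 1 or MM1R vehicle replicate 2 and with library size scaling. NFKB1 was lower by −0.15 (edgeR adjusted p = 0.0471), a call lost without any 1 of the 4 libraries, with RLE, no filter and DESeq2. NFKBIA (log2FC −0.11, 95% interval −0.31 to 0.09), NFKBIE (0.05, −0.21 to 0.30) and RELB (−0.08, −0.26 to 0.09) were not separated between the lines. NFKB2 (−0.14, edgeR adjusted p = 0.114) and TRAF3 (−0.13, edgeR adjusted p = 0.0722) were called lower with library size scaling and with only the groups compared. Without MM1S vehicle replicate 1 or MM1R vehicle replicate 2, where RELA and NFKB1 both lost their calls, fewer of all genes were called too.

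The wider pathway was read from 4 lists: 24 receptors and ligands (17 tested), 31 adaptors, kinases and ubiquitin enzymes (31 tested), 20 other inhibitors and IκB family genes (19 tested) and 34 target genes (28 tested). Under TAK-981 the adaptors and kinases, which carry the signal from receptors to IKK, gave 12 higher and 3 lower in MM1S and 14 higher and 3 lower in MM1R. The other inhibitors gave 7 higher and 1 lower, and 8 higher and 1 lower. Over all genes edgeR called 25.2% higher and 23.7% lower in the first line, and 25.8% and 27.6% in the second. The share called in these lists, in either direction, was thus near or below that of all genes (49.0% and 53.4%), while the calls were mostly in the higher direction. Their median log2FC ran from 0.12 to 0.20 over these lists and lines, against 0.04 and 0.00 for all genes. Receptors and ligands went both ways, with 5 higher and 5 lower in MM1S (median 0.14) and 8 higher and 5 lower in MM1R (median 0.41). NF-κB target genes gave 13 higher and 4 lower in MM1S (median 0.19) and 15 higher and 2 lower in MM1R (median 0.48).

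Named genes of the lists are those with the smallest adjusted p in each direction. Values are log2FC against vehicle, given for MM1S and then MM1R, and each passed the test unless a p is given. CD40, a TNF-family receptor of B lineage cells, rose under TAK-981 by 0.51 and 0.91, TLR1, a receptor for bacterial lipopeptides, by 0.77 and 1.39, and TLR6 by 0.43 and 0.79. LTB, a lymphotoxin subunit that feeds the non-canonical arm, rose by 1.50 in MM1R. In MM1S LTB was at 0.188 and 0.205 CPM with vehicle and 0.519 and 0.515 CPM with TAK-981. These are only a few counts, and no fold is given for that line. The TNF receptors fell, TNFRSF1A at −0.49 and −0.64 and TNFRSF1B at −0.61 and −0.81, as did TNFRSF13B (TACI) at −0.44 and −0.35, and TNFRSF8 (CD30) was at 0.14 (edgeR adjusted p = 0.738) and −1.10. In the adaptor and kinase list IKBKE, an IKK-related kinase, rose by 0.63 and 0.86, TRADD and RIPK1, which join the TNF receptor complex, by 0.75 and 0.60 and by 0.41 and 0.31, MYD88 by 0.44 and 0.61 and RNF31 by 0.49 and 0.50. UBE2N, an enzyme that builds non-degradative ubiquitin chains, fell in both lines (−0.42 and −0.48), as did IRAK1 (−0.35 and −0.42), while MAP3K7 (TAK1) was at −0.17 and −0.09 (edgeR adjusted p = 0.232 in MM1R) and CHUK (IKKα) at −0.16 (edgeR adjusted p = 0.123 in MM1S) and −0.25. Of the inhibitors ZC3H12A, an RNase that degrades inflammatory mRNAs, rose by 0.47 and 0.98, CYLD, a deubiquitinase, by 0.31 and 0.36, TNIP2 by 0.68 and 0.37 and NFKBIZ by 0.42 and 0.56, while OTULIN was at −0.22 and −0.17. Among the targets IL2RG rose by 1.05 and 1.00, CFLAR, which blocks caspase activation at death receptors, by 0.80 and 1.06, ICAM1 by 0.96 and 0.74 and IRF1 by 0.64 and 0.70. CCND2 (−0.75 and −0.31) and the chemokine CCL3 (−0.60 and −0.43) fell in both lines, and the adhesion receptor CD44 was at −0.34 and −0.07 (edgeR adjusted p = 0.409 in MM1R).

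Dex in MM1S lowered more target genes than it raised, with 14 lower and 4 higher of 28 (median −0.36), where 21.5% of all genes were lower and 20.8% higher (median 0.01). CCL3 was at −2.33, the invariant chain CD74 at −1.11 and CCND2 at −0.78, while CFLAR (1.25), SAT1 (0.78) and GADD45B (0.47) rose. Receptors and ligands gave 6 lower and 1 higher (median −0.28). In that list TLR7 (−1.70), TNFRSF17 (BCMA, −0.62) and TNFRSF13B (−0.49) fell and the ligand TNFSF13 (APRIL, 0.52) rose. Adaptors and kinases gave 13 higher and 4 lower (median 0.13), with TRADD at 0.96, RBCK1 at 0.48 and IKBKB (IKKβ) at 0.40, against TRAF5 and CHUK, both at −0.36, and UBE2N at −0.23. The other inhibitors gave 3 higher and 4 lower (median −0.05). ZC3H12A rose by 2.29, TNIP2 by 0.60 and PDLIM2 by 0.49, while NKIRAS1 (−0.80), NFKBID (−0.62) and CYLD (−0.20) fell. PDLIM2 (edgeR adjusted p = 0.0427) and NFKBID (edgeR adjusted p = 0.0374) passed near the threshold. Neither was above 4.87 CPM in the vehicle and Dex libraries of MM1S. In MM1R 0 of the 95 tested genes of the 4 lists together were called under Dex with edgeR, and 1 had an unadjusted p under 0.05.

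Dex added to TAK-981 gave 15 target genes lower and 3 higher of 28 in MM1S (median −0.70), 7 receptors and ligands lower and 1 higher of 17 (median −0.26), 4 other inhibitors lower and 1 higher of 19 (median −0.02), and 1 adaptor or kinase lower and 4 higher of 31 (median 0.02). Of all genes 20.6% were lower and 14.5% higher (median −0.02). In MM1R 0 of these 95 genes were called with edgeR, and 2 had an unadjusted p under 0.05. Between the vehicle-treated lines the target genes gave 8 higher and 9 lower in MM1R (median 0.00) and the receptors and ligands 6 and 6 (median 0.07), where 25.6% of all genes were higher and 22.6% lower (median 0.01). LTB was at 2.44 and 2.89 CPM in MM1R and at 0.188 and 0.205 CPM, only a few counts, in MM1S. It passed the filter through the MM1R libraries, where it is high, and no fold is given. TNFRSF8 (2.62) and TNFRSF1A (0.55) were higher in MM1R, and TLR1 (−0.77), TNFRSF13B (−0.69) and CD40 (−0.56) lower. Among the targets ICAM1 (1.39), CXCL10 (1.35) and CCL3 (0.68) were higher, and CCND1 (−1.70), CCL4 (−1.30) and CD74 (−0.62) lower. The adaptors and kinases gave 4 higher and 6 lower (median −0.05). MAP3K14, which encodes NIK, was higher by 0.20, near the threshold (edgeR adjusted p = 0.0435), and IRAK1 by 0.23. TRAF1 (−1.27), IKBKE (−0.54) and TRAF6 (−0.51) were lower. The other inhibitors gave 1 higher and 2 lower (median −0.02), with PDLIM2 at 0.79, ZC3H12A at −0.52 and CYLD at −0.45.

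**Figure D4:**
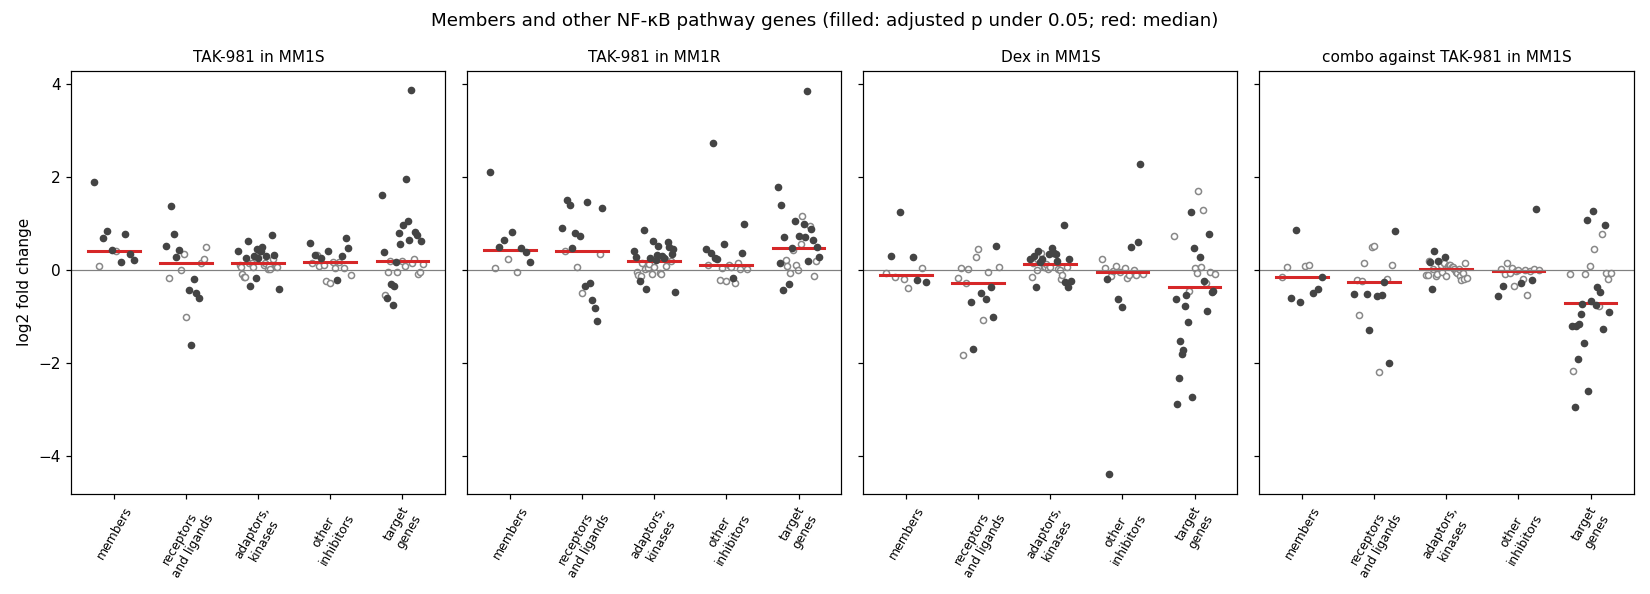
Log2 fold change of the 10 members and of the tested genes of the 4 pathway lists in TAK-981 against vehicle for MM1S and MM1R, Dex against vehicle in MM1S and combo against TAK-981 in MM1S, with 1 point per gene, filled where the edgeR adjusted p is under 0.05, and a red bar at the median. The median of the target genes is above 0 under TAK-981 (0.19 and 0.48) and below 0 in the Dex panels (−0.36 and −0.70).

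Over the 8 group means of log2 CPM, REL spanned 2.53, BIRC3 2.53, NFKBIA 1.85 and RELA, the flattest member, 0.29. Likeness to a member was measured as the root mean square difference of log2 CPM over the 8 groups after centring each gene. The genes most like BIRC3 were HECW2 (0.104), PCDH18 (0.107) and ASAP3 (0.156). NFKBIA was closest to VMAC (0.0855), CAPS (0.112) and TMEM150A (0.113). For REL the nearest genes were RSPH1 (0.160), RGS9 (0.161) and SCN3B (0.168).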

How the data were processed

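RNA-seq libraries of MM1S and MM1R were grouped by their sample labels into 8 groups of 2. The authors deposited raw read counts, whole numbers for 23354 genes with symbol, position, strand and length, which were used as deposited. Their processing notes name bcl2fastq 2.18.0.12, STAR 2.6.0, HTSeq 0.6.0, edgeR 3.28.1 and the hg19 build. Strand use in counting is not given in the sources used here, so reads of overlapping genes on opposite strands may not be separated.

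Genes were kept with edgeR's filterByExpr (14215 of 23354, minimum count 10, minimum total 15), scaled with TMM and fitted to all 16 libraries with 1 term per group by edgeR's robust quasi-likelihood fit (8 residual degrees of freedom). In all, 15 contrasts and 1 added after results had been seen were tested by the F test, with Benjamini-Hochberg adjustment over all tested genes and a threshold of 0.05. Intervals are 95% intervals of the fitted log2 fold changes. Log2 CPM used a prior count of 2. Total counts of 15707587 to 24796539 set the counting precision, and replicates differed by more than counting noise (chi-square per degree of freedom 2.08 to 21.2). This spread was unequal between groups, while each p-value of the main fit rests on an estimate shared by all of them.

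The members, the 4 pathway lists and the tests were chosen with earlier results of these data known. All members are named in full. From each list, up to 3 higher and 3 lower called genes with the smallest adjusted p and a mean log2 CPM of at least 0 are named, for TAK-981 in each line, Dex in MM1S and the vehicle-treated lines. For likeness, the 3 nearest genes to the 3 members of widest range are named.

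Alternatives were DESeq2, RLE or plain library size scaling, all genes without the count filter, a replicate block, a fit restricted to the compared groups, a further threshold of 1 on the absolute log2 fold change, and the removal of single libraries. Calls of genes from the 4 pathway lists were not followed through these alternatives. On simulated counts for 13876 genes, the TAK-981 comparison in MM1S called 74% of 100 genes changed 1.5-fold and 83% of 100 changed 2-fold, and 6 unchanged genes. The simulated counts held few changed genes, whereas edgeR called 49.0% of all genes in the data, so these rates may not carry over. The software was edgeR 4.0.16 and DESeq2 1.42.0 with limma 3.58.1 in R 4.3.3, and matplotlib 3.10.9.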

Additional observations from a re-analysis of the deposited data

Results flagged for a closer look

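A different Dex response in MM1R and MM1S, by a test of the difference itself (log2 fold change of the MM1R response minus the MM1S response, edgeR with Benjamini-Hochberg adjustment), was found for NFKBIA at −1.29 (adjusted p = 5.19e-07), RELA at −0.40 (0.00344), NFKB1 at −0.38 (0.00254) and TRAF3 at 0.26 (0.0261). In the presence of TAK-981 the effect of Dex differed between the lines, again as MM1R minus MM1S, for NFKBIE at 0.82 (0.00197), NFKB2 at 0.65 (8.17e-05), RELB at 0.56 (0.00115), TNFAIP3 at 0.44 (2.91e-04) and NFKBIA at −0.76 (1.62e-04). Within MM1S the TAK-981 response with Dex was below that without it for TNFAIP3 at −0.46 (5.39e-04), NFKB2 at −0.46 (0.0045) and NFKBIA at −0.39 (0.0441). Of all genes edgeR called 28.1%, 23.0% and 14.9% in these tests, in order, and the second was added after results had been seen. The TRAF3 call and the NFKBIA call within MM1S were not firm, and were lost without most single libraries. TRAF3 also lost it with no filter, NFKBIA with library size scaling and DESeq2, and NFKBIA and NFKB2 with only the groups compared.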

How the results depend on the processing

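With 2 libraries per group of single cell lines, small log2 fold changes could not be separated from 0, and REL, at 12 to 79 counts, least of all. Over 6 alternatives that kept every library of the compared groups, 57 of 960 member values crossed the threshold and 8 changed sign without passing it under either setting. With 1 library left out it was 74 and 46 of 840. No value past the threshold under both settings changed sign.

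Whether the replicate numbers pair the libraries is not stated, and the main fit held no replicate term. Same-numbered deviations correlated at 0.016 to 0.263 between groups of MM1S and at −0.013 to 0.082 between groups of MM1R. A replicate block within each line gave 7 members for combo against vehicle in MM1S, 3 for line by TAK-981 and 6 for TAK-981 by Dex in MM1S, in place of 4, 0 and 3. Of all 14215 genes the block called 9282, 2061 and 3579 in these comparisons, in place of 8573, 592 and 2125. In all, 16 member values passed the threshold with the block but not in the main fit, and 0 lost it. Among the 16 were BIRC3 in combo against TAK-981 in MM1S (−0.15) and NFKBIE in combo against vehicle in MM1S (−0.27). Both were also called under other settings. With only the groups compared, TAK-981 by Dex in MM1S gave 1 member, and 779 of 13799 genes were called. A further threshold of 1 on the absolute log2 fold change left 1 member for TAK-981 in each line, Dex in MM1S, combo against vehicle in MM1R, combo against Dex in each line, the vehicle-treated lines and line by Dex, 2 for combo against vehicle in MM1S, and 0 for combo against TAK-981 in MM1S, TAK-981 by Dex in MM1S and line by Dex under TAK-981. Leaving out 1 library gave 5 to 7 members for TAK-981 in MM1S, 3 to 4 for the vehicle-treated lines, 0 to 3 for line by TAK-981 and 2 to 6 for TAK-981 by Dex in MM1S. Where an alternative changed a count and does not itself use fewer samples or a stricter rule, the cause was not tested.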
